A study of Mus musculus with 29 samples.

Results

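Mitochondrial ribosomal proteins are the nuclear-encoded proteins of the ribosome that works inside mitochondria. Their messenger RNAs were followed here in pro-B cells, the early B cell precursors of the bone marrow, with and without the transcription factor Pax5. Members were all entries of the expression tables whose name, before any added mark, begins with Mrpl or Mrps and a number. This gave 76 of 24732 entries in the tables made on the mm9 mouse genome, with 47 entries named for the large subunit and 29 named for the small subunit. In the tables made on the mm10 genome the same rule found 78 of 25588 entries, with 49 large and 29 small names, and all 76 mm9 names were among them. The additional entries of mm10 were Mrpl57 and Mrpl58, which the mm9 tables list as Mrp63 and Ict1, outside the rule.

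The series compared B cell leukaemia driven by a Pax5-Jak2 fusion with normal B cell precursors in mice, and 8 of its 29 samples held RNA tables used here. The wild-type group had 3 libraries of pro-B cells and the Pax5(-/-) group had 2 libraries of cells that lack functional Pax5, all from C57BL/6 mice, sorted ex vivo by flow cytometry; ages were not given in the sources used here. Per the study's methods, wild-type pro-B cells and Pax5-deficient progenitors were both sorted as Kit-positive B220-positive cells, but by gates that otherwise differed, so the gate and the genotype cannot be told apart. A further group of 3 libraries, labelled Pax5(+/+) Meox2-cre, came from pooled sorted pro-B cells of 3-week-old C57BL/6 mice in which Cre recombinase is made in all tissues from the Meox2 locus. A sample list of the study gives these libraries as Pax5(+/-), so their Pax5 genotype is uncertain. These libraries were aligned and counted differently, and their levels are given apart with no test against the mm9 tables. Nothing in the labels says whether libraries of a group came from separate animals, so p-values measure only the spread between these samples.

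The mitochondrial ribosome has a large subunit, which forms peptide bonds, and a small subunit, which reads the messenger RNA. It translates the few messenger RNAs of mitochondrial DNA, all of which encode subunits of the respiratory chain and ATP synthase, while its own proteins are made in the cytosol and imported. Some of its proteins have bacterial counterparts, and others were added in mitochondria. Names do not always give the place in the particle. Mrps18a and Mrps30 sit in the large subunit despite their names, and Mrps36 is known as a component of the alpha-ketoglutarate dehydrogenase complex and not as a subunit protein.

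Sample identity was read from marker genes. Levels are in TPM, a unit in which counts are divided by gene length and scaled to the same total in each library. Pax5 itself was measured at 342, 386 and 391 TPM in wild-type cells, against 43.0 and 39.1 TPM in those labelled Pax5(-/-), and a single value per gene does not show which exons the remaining reads came from. All 8 B lineage markers passed the test as lower in Pax5(-/-), and among the genes of the sort, Flt3 and Ly6d were higher and Cd2 was lower. The 7 myeloid markers summed to 45.9 to 252 TPM in wild-type and 55.4 to 83.7 TPM in Pax5(-/-) libraries, Cd3e did not exceed 0.432 TPM in any library, and the globin entries Hba-a1 and Hbb-b1 were listed at 0 in all 5. Of 12 cell division genes, 9 were lower in Pax5(-/-). These gene groups move with the genotype, and their part in the results was not tested. In such bulk samples, fewer cells of a type and less RNA per cell cannot be told apart.

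Every member was measured above 0 in all 8 libraries. Together the 76 members took 0.955%, 0.863% and 0.883% of the TPM of the wild-type libraries and 0.863% and 0.857% of that of the Pax5(-/-) libraries. In the Meox2-cre libraries the 78 members took 0.901%, 0.975% and 0.917%. The summed level of the first wild-type library was the highest of the 5 mm9 libraries, and both Pax5(-/-) sums lay below the 3 wild-type sums, though the closest pair, 8626 and 8632 TPM, was nearly equal. Since TPM is per length, levels of different genes can be set side by side, while read depth is unknown.

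Levels differed widely between members although nearly all of these proteins, Mrpl12 apart, are present as a single copy in each particle. Wild-type means ran from 3.64 TPM for Mrpl23 to 417 TPM for Mrpl54, a 115-fold range, with a median of 90.4 TPM. Between 20 and 200 TPM lay 60 of 76 members, 11 lay above 200 TPM and 5 below 20 TPM. The upper end was mostly of the large subunit, with 9 of the 11 members above 200 TPM. Mrpl54, a protein added in mitochondria, stood at 459, 454 and 338 TPM in wild-type and 355 and 361 TPM in Pax5(-/-) cells. Mrpl52, another of these, stood at 449, 395 and 360 TPM against 404 and 410 TPM. Mrpl12, which forms the stalk that recruits translation factors and is also known to bind the mitochondrial RNA polymerase, stood at 441, 379 and 379 TPM against 426 and 395 TPM. The ranges of these highest members overlapped each other, and their order was not resolved by the spread between libraries. Mrps18a at 282 ± 45.7 TPM (SD, n = 3), Mrps21 at 226 ± 10.4 TPM and Mrps16 at 199 ± 24.1 TPM were the highest entries with a small subunit name, and their wild-type ranges were 229.8 to 316, 216 to 237 and 172 to 216 TPM.

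At the lower end, Mrpl23, which lies at the exit of the peptide tunnel, stood at 4.35, 3.20 and 3.36 TPM in wild-type and 3.56 and 3.24 TPM in Pax5(-/-) cells. Mrpl1, a protein of the mobile side stalk that helps spent transfer RNA to leave, stood at 7.04 to 8.01 TPM in wild-type and 8.56 and 8.83 TPM in Pax5(-/-) cells. Mrpl35 was at 12.3 to 15.9 TPM in the wild-type libraries. Of the small subunit names, Mrps33 was lowest at 6.75, 5.67 and 10.6 TPM, followed by Mrps25 at 10.7 to 11.7 TPM and Mrps36 at 21.9 to 31.3 TPM. Mrps36, the member that is not a subunit protein, did not overlap Mrps25 or Mrps33 but overlapped the range of its upper neighbour Mrps31, 24.3 to 31.2 TPM. The order of levels was close to the same in both genotypes, with Pearson's r = 0.983 on log2(TPM + 0.5) and Spearman's rho = 0.972 across 76 members, which share libraries and gene lengths and are not independent.

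**Figure D1:**
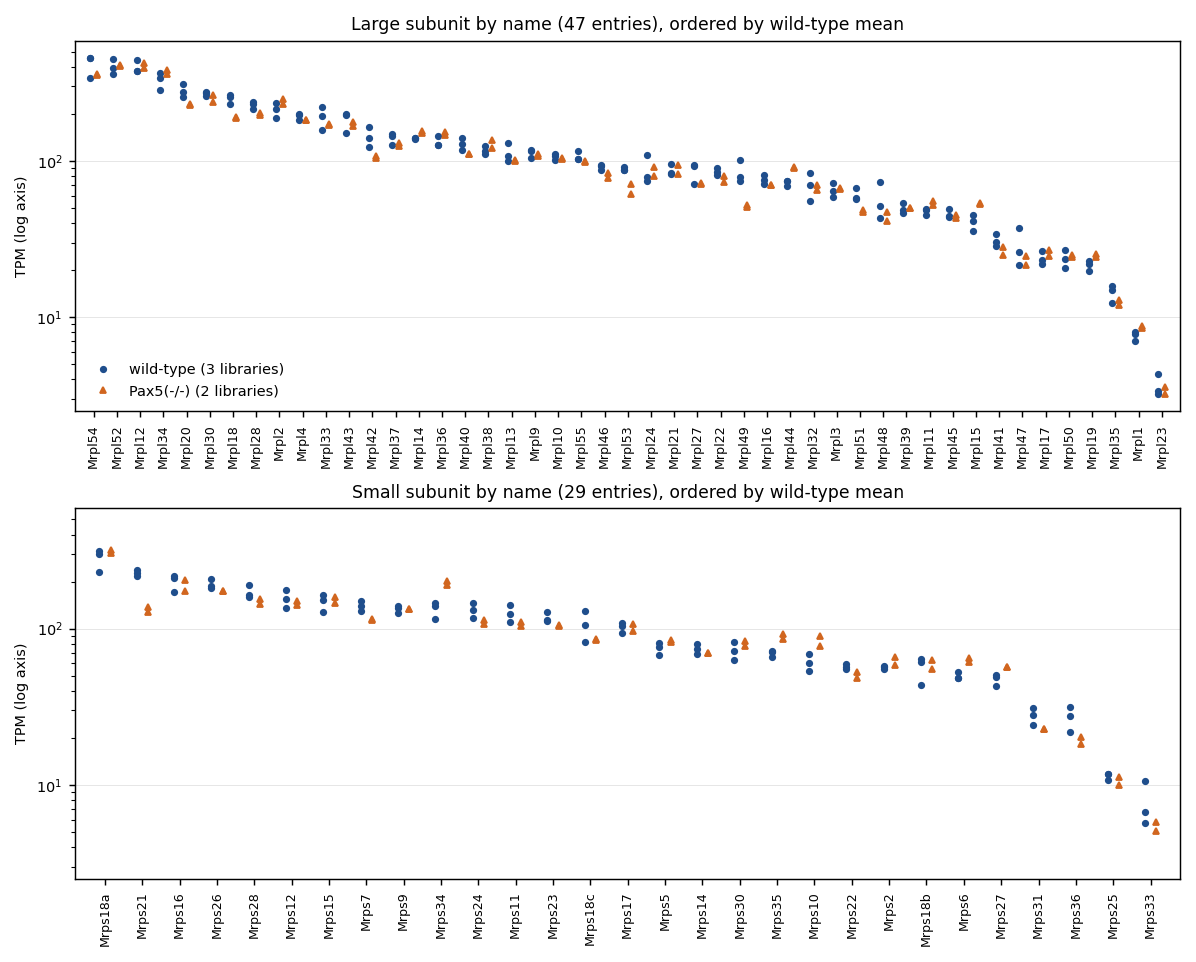
TPM of every member in each mm9 library on a log axis, with blue circles for the 3 wild-type and orange triangles for the 2 Pax5(-/-) libraries, and members ordered by wild-type mean within each subunit. Levels fall from 417 TPM for Mrpl54 to 3.64 TPM for Mrpl23, and the genotypes lie on each other for most members, with Mrps21 and Mrpl49 lower and Mrps34 and Mrps10 higher in Pax5(-/-).

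The subunits were compared by their mean level per entry. Large subunit entries averaged 134, 122 and 124 TPM in the wild-type libraries and small subunit entries 112, 100.2 and 103 TPM. The ratio of large over small was 1.19, 1.22 and 1.20 in wild-type and 1.18 and 1.17 in Pax5(-/-) libraries, and 1.25, 1.30 and 1.27 in the Meox2-cre libraries. Large exceeded small in each library by this measure, but not by medians, where the ratio was 0.966 ± 0.0852 in wild-type (SD, n = 3), 0.963 ± 0.0519 in Pax5(-/-) (n = 2) and 0.928 ± 0.0540 in Meox2-cre libraries (n = 3). When Mrps18a and Mrps30 were counted as large and Mrps36 was left out, the ratio was 1.25 ± 0.0110 in wild-type and 1.25 ± 0.0147 in Pax5(-/-) libraries, and the gap between genotypes was no longer present.

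For 67 of the 76 members RefSeq gave a promoter sequence of 250 bases before to 50 after the start on GRCm38.p6, the exceptions being Mrpl13, Mrpl15, Mrpl19, Mrpl38, Mrpl4, Mrpl54, Mrps28, Mrps34 and Mrps35. Genes for mitochondrial proteins are known for binding sites of the factors GABP, of the ETS family, and NRF1, so their core letters were searched on both strands. The ETS core CCGGAAG occurred in 24 member promoters (35.8%), with 13 of 41 large and 11 of 26 small subunit genes, beside 9.93% of the 27025 gene symbols in the promoter table and 21.0% of the 8846 symbols that were also tested for expression. The NRF1 core CGCATGCG was present in 7 (10.4%), beside 2.07% of all and 4.65% of tested symbols. ATGGCGGC, the core of YY1 sites, was present in 12 (17.9%), beside 2.60% and 6.01%, and the E-box CACGTG bound by Myc and related factors in 5 (7.46%), beside 8.09% and 12.1%. Of the 8 called members with a promoter, 3 held the ETS core, 1 the YY1 core and none the NRF1 core or the E-box. A match describes letters only and does not show that a factor binds.

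The 80 bases before the start are printed for 8 members, 6 that show how the ETS and NRF1 cores lie before abundant or disease-linked members and others, and 2 that were lower in Pax5(-/-) cells, all chosen where no annotated RefSeq gene covers these bases. Capitals mark the searched cores, and all lines run 5′ to 3′ toward the gene on GRCm38.p6. Mrpl52 (chr14:54426829-54426908 on the plus strand) and Mrpl34 (chr8:71464846-71464925 on the plus strand) are abundant large subunit members, and Mrps18a (chr17:46110924-46111003 on the plus strand) is the most abundant small subunit name. Mrps22 lies at chr9:98601680-98601759 on the minus strand, Mrpl17 at chr7:105811088-105811167 on the minus strand and Mrpl32 at chr13:14613038-14613117 on the minus strand. Mrpl42 (chr10:95501950-95502029 on the minus strand) and Mrpl49 (chr19:6057756-6057835 on the minus strand) were lower in Pax5(-/-) cells and hold none of the 4 cores in these bases. Mrpl12, Mrpl35, Mrps16, Mrps25, Mrps33 and Mrps36, which were not called and are not printed, also hold none in their 80 bases.
Mrpl52: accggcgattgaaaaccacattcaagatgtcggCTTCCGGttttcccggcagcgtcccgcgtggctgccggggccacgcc
Mrpl34: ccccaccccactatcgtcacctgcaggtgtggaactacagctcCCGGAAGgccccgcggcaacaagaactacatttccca
Mrps18a: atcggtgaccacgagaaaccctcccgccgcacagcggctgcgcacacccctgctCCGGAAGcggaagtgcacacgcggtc
Mrps22: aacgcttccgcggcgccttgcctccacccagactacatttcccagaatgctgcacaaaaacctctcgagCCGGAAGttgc
Mrpl17: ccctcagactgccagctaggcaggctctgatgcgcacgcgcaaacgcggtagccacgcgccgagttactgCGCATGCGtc
Mrpl32: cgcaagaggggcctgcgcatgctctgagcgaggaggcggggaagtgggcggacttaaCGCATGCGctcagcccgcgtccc
Mrpl42: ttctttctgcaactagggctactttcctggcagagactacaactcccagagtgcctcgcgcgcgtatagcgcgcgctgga
Mrpl49: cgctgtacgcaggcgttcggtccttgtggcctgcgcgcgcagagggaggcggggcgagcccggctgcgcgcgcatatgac
In the printed bases the ETS core lies on the strand of the gene in Mrpl34, Mrps18a and Mrps22 and on the other strand in Mrpl52, while Mrpl17 and Mrpl32 carry the palindromic NRF1 core.

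Most members were at similar levels with and without Pax5, and the exceptions changed by less than 2-fold. Mrps21 and Mrpl49 were the lowest in Pax5(-/-) relative to wild-type cells, at 1.71-fold and 1.62-fold lower, and Mrps34 and Mrps10 the highest, at 1.47-fold and 1.38-fold higher. Expression in Pax5(-/-) was compared with wild-type cells entry by entry with limma on log2(TPM + 0.5), over the 12066 entries whose mean exceeded 1 TPM in a genotype and with Benjamini-Hochberg adjustment over all of them. A call is an adjusted p below 0.05. All 76 members passed this filter. Of them, 6 were higher and 5 were lower in Pax5(-/-) cells, and 65 did not pass. Over all entries tested, 15.6% were higher and 21.5% were lower, 37.1% in all, beside 14.5% of members. Among entries with a mean of at least 20 TPM, where most members lie, 38.1% were called, beside 11 of 71 members. No member passed the rule of the study's methods, an adjusted p below 0.05 with a change over 3-fold and a mean above 5 TPM, which 6.17% of all entries passed with immunoglobulin and T cell receptor entries kept. The highest and lowest log2 fold changes of members were 0.56 and -0.77.

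Both Pax5(-/-) libraries lay above every wild-type library for 14 members and below every wild-type library for 22, beside 26.1% and 37.4% of all entries tested. For the remaining 40 members the genotypes overlapped. Alone, 3 against 2 libraries cannot give an exact permutation p below 0.1. The 95% interval of the change lay within 1.5-fold in both directions for 57 of 76 members (75.0%), beside 28.2% of all entries tested and 44.4% of those with a mean of at least 20 TPM. For these members the intervals exclude a change of 1.5-fold, whether called or not. Among the 65 members not called, standard errors of the log2 fold change ran from 0.089 to 0.275, and the widest intervals reached -1.06 and 0.585.

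Mrps21, the counterpart of the bacterial protein S21 of the small subunit platform, had the largest change of any member. It was measured at 237, 225 and 216 TPM in wild-type and 128 and 137 TPM in Pax5(-/-) cells. Every Pax5(-/-) value lay far below every wild-type value, at a log2 fold change of -0.77 ± 0.095 (SE), or 1.71-fold lower, with adjusted p = 0.000869 by limma. The gene lies at chr3:95666557-95675442 on the minus strand of mm9, shares no exon with another annotated gene, and starts 3 bases from the divergent gene C920021L13Rik, which had a log2 fold change of -0.88 and was not called.

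Mrpl49, a large subunit protein added in mitochondria, was at 78.5, 74.2 and 101 TPM in wild-type and 52.0 and 51.0 TPM in Pax5(-/-) cells. The libraries did not overlap, and the log2 fold change was -0.70 ± 0.15 (adjusted p = 0.00898). Its entry carries an added overlap mark in the mm9 tables. On mm9 (chr19:6053630-6057758) an exon of it overlaps the gene Syvn1 on the other strand, so reads in the shared bases may not be separable.

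Mrpl53, also a large subunit protein of mitochondria alone, was at 88.0, 91.9 and 87.0 TPM against 61.6 and 70.9 TPM, a log2 fold change of -0.43 ± 0.11 (adjusted p = 0.0183). Its entry carries the same mark and it overlaps an exon of Ccdc142 on the same strand. Mrpl42 was at 140.1, 123 and 165 TPM against 107 and 104 TPM (-0.42 ± 0.13, adjusted p = 0.0420). Mrpl18, whose bacterial counterpart binds the small 5S ribosomal RNA in the central protuberance, was at 263, 232 and 255 TPM against 193 and 187 TPM (-0.39 ± 0.097, adjusted p = 0.0166). All of these lower members were lower in both Pax5(-/-) libraries than in any wild-type library, and 4 of the 5 belong to the large subunit.

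Of the 6 higher members, 4 belong to the small subunit. Mrps34, a small subunit protein added in mitochondria, was at 145, 139.9 and 115 TPM in wild-type and 191 and 201 TPM in Pax5(-/-) cells. Both Pax5(-/-) values lay above the wild-type range, at a log2 fold change of 0.56 ± 0.12 (adjusted p = 0.0104). Mrps34 (chr17:25032061-25034447 on mm9) overlaps exons of Nme3 and Mapk8ip3 in the annotation, 1 of them on the same strand. Mrps10, counterpart of bacterial S10, was at 68.5, 53.7 and 60.3 TPM against 90.3 and 77.2 TPM (0.46 ± 0.14, adjusted p = 0.0338). Mrps35, another protein added in mitochondria, was at 71.4, 65.8 and 70.7 TPM against 86.5 and 92.0 TPM (0.36 ± 0.10, adjusted p = 0.0271). Mrps6, counterpart of bacterial S6, was at 48.5, 48.1 and 52.7 TPM against 65.1 and 61.6 TPM (0.35 ± 0.11, adjusted p = 0.0401), and its entry carries the overlap mark, with an exon shared with Slc5a3.

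The 2 higher members of the large subunit were Mrpl15 and Mrpl44. Mrpl15, counterpart of bacterial L15, was at 41.3, 44.8 and 35.5 TPM in wild-type and 53.5 and 53.4 TPM in Pax5(-/-) cells (0.40 ± 0.13, adjusted p = 0.0472). Mrpl44, which has a fold related to ribonuclease III, was at 73.9, 69.0 and 74.1 TPM against 90.7 and 92.0 TPM (0.34 ± 0.098, adjusted p = 0.0319). For these and the small subunit members above, the libraries of the genotypes did not overlap. With either Pax5(-/-) library left out, Mrps21 was the single member still called, and none of the 6 higher members was, at adjusted p of 0.0804 to 0.250. Of the lower members, Mrpl18, Mrpl42, Mrpl49 and Mrpl53 then had adjusted p of 0.0629 to 0.238.

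**Figure D2:**
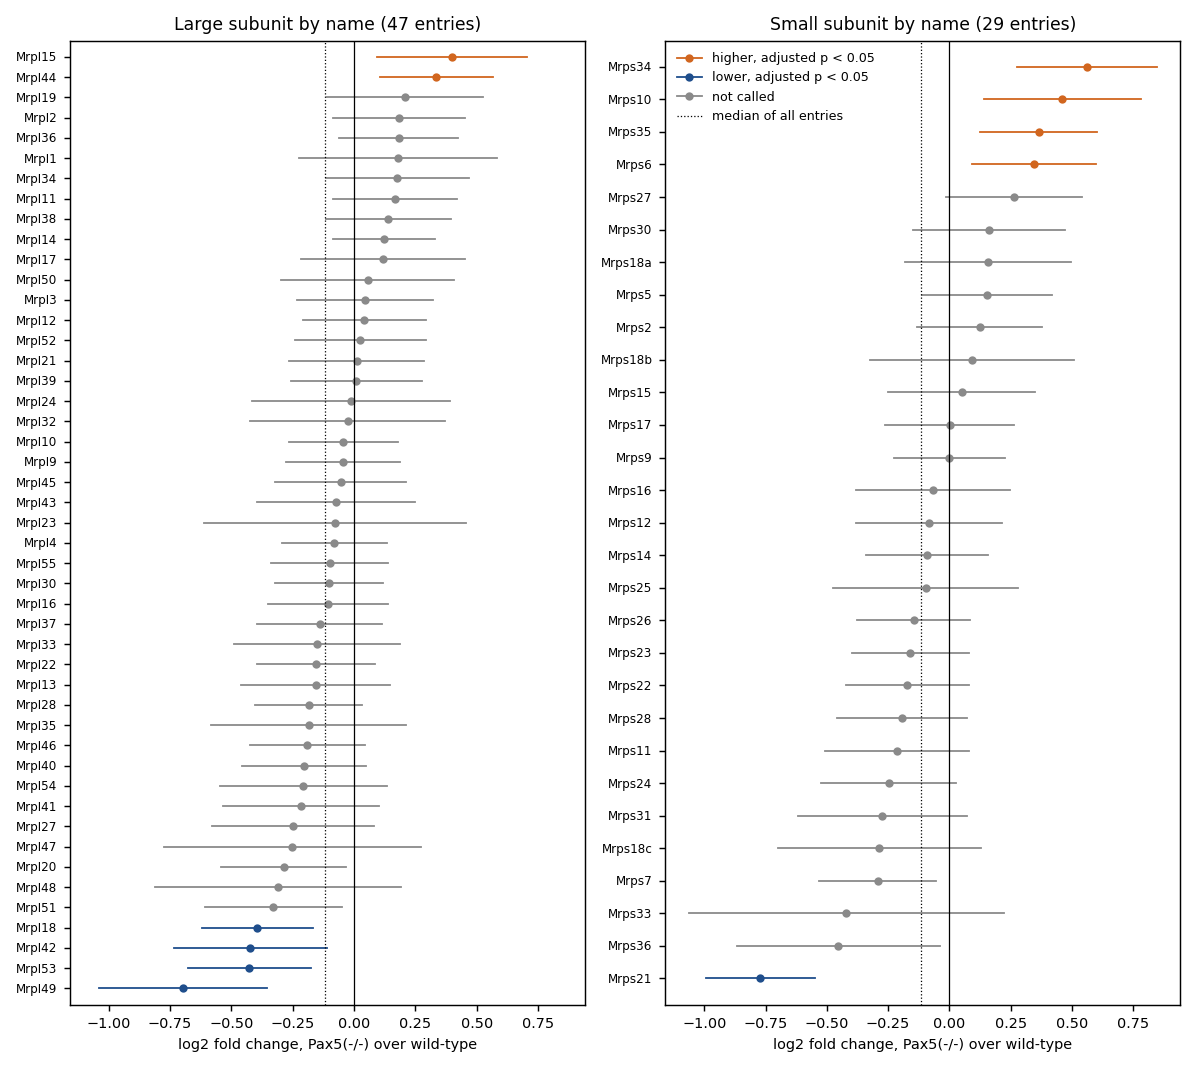
Log2 fold change of each member in Pax5(-/-) over wild-type cells with its 95% interval from limma, by subunit name, with called members in orange (higher) or blue (lower) and the others in grey. The dotted line is the median of all 12066 entries, and the changes run from -0.77 for Mrps21 to 0.56 for Mrps34, with most intervals crossing 0.

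In their median change, the subunits did not separate. The median log2 fold change was -0.08 over all members, -0.08 over the 47 large and -0.08 over the 29 small subunit entries, a difference of 0.0054 that is below the 0.0251 by which this difference varied between libraries of a genotype. The median over all entries tested was -0.12, so it lay below that of the members by 0.04. Called members were 2 higher and 4 lower of 47 in the large subunit and 4 higher and 1 lower of 29 in the small subunit. These were 12.8% of large and 17.2% of small entries, beside 37.1% of all entries tested. Whether the directions differ between the subunits was not tested. Quartiles were -0.20 and 0.05 for large and -0.22 and 0.15 for small subunit entries. Rescaling the libraries by median ratios moved the median of all entries by over 0.1 to -0.0031, that of members to 0.03, and left 6 higher and 2 lower members. Under quantile normalization the median of all entries was -0.02, that of members 0.0080, and 6 members were higher and 3 lower. The sign of the members' median thus followed the scaling. Its distance from the median of all entries was 0.04 as deposited and with median ratios, 0.02 with quantile normalization and -0.0058 with no filter. It ran from -0.0030 without the third wild-type library to 0.13 without the first.

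By origin, 2 of 29 large subunit members with a bacterial counterpart were called, 1 in each direction, with a median log2 fold change of -0.04. Of the 17 large subunit members added in mitochondria, 1 was higher and 3 were lower, with a median of -0.19. In the small subunit, 2 of 16 conserved members were higher and 1 lower (median -0.07), and 2 of 9 added members were higher (median -0.15). Called were 6.9% of conserved and 23.5% of added large members, and 18.8% and 22.2% of small ones. Of all entries tested 37.1% were called. The lower members were 17.6% of the added large class, beside 21.5% of all entries. The higher members were 22.2% of the added small class, beside 15.6%. Mrpl55, Mrps18a, Mrps18b, Mrps30 and Mrps36 are in neither class here. These are descriptions of few genes each, and no difference between the classes was tested.

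By place in the large subunit, none of the 3 stalk proteins was called. Mrpl10, which anchors the stalk, was at 111, 102 and 108 TPM against 102 and 105 TPM, and Mrpl11 at 48.6, 45.4 and 49.5 TPM against 52.2 and 55.3 TPM, with intervals of the log2 fold change from -0.27 to 0.18 and from -0.09 to 0.42. Of 6 proteins around the exit of the peptide tunnel none was called, and their log2 fold changes ran from -0.25 for Mrpl47 to 0.12 for Mrpl17. Mrpl45, which holds the ribosome to the inner membrane, was at 44.7, 43.6 and 49.5 TPM against 44.9 and 43.4 TPM. Of 6 central protuberance proteins only Mrpl18 was called (16.7%), beside 37.1% of all entries tested. Others of this group had log2 fold changes of -0.31 for Mrpl48, -0.20 for Mrpl40, -0.19 for Mrpl46, 0.03 for Mrpl52 and 0.14 for Mrpl38.

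The Mrps18 family has 3 members, which in mitochondria take different places in the ribosome. Mrps18a was at 316, 229.8 and 299 TPM in wild-type and 318 and 304 TPM in Pax5(-/-) cells. Mrps18b was at 61.1, 43.5 and 63.6 TPM against 62.9 and 55.3 TPM. Mrps18c was at 105, 82.6 and 129 TPM against 85.6 and 84.7 TPM. The order a, c, b held in each library without overlap of the groups, none of the 3 was called, and the second wild-type library was the lowest of the wild-type libraries for each. Without that library Mrps18c was called as lower, at -0.45 with adjusted p = 0.0483. Mrps30, the other large subunit protein with a small subunit name, was at 62.8, 81.5 and 71.7 TPM against 77.3 and 83.0 TPM and was not called.

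Mrps36 was at 31.3, 27.4 and 21.9 TPM in wild-type and 18.2 and 20.4 TPM in Pax5(-/-) cells. Its libraries did not overlap, but its change, -0.45 ± 0.18 on the log2 scale, did not pass (adjusted p = 0.0808). Without the third wild-type library it was -0.59 with adjusted p = 0.0201. Mrps33 had a similar log2 fold change of -0.42 with a wider interval, from -1.06 to 0.22, and overlapping libraries.

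Mutations of the 12 members listed here are known to cause mitochondrial disease in people, mostly with combined loss of respiratory chain activity. Of these, Mrps34 and Mrpl44 were higher as above (16.7% called, beside 37.1% of all entries tested) and 10 were not called. Mrps2, Mrpl3, Mrpl12, Mrpl24 and Mrps14 had log2 fold changes between -0.09 and 0.12, and Mrps16 had -0.07. Mrps7, Mrps22, Mrps23 and Mrps28 had -0.29, -0.17, -0.16 and -0.19, with adjusted p of 0.0583, 0.243, 0.252 and 0.219 by limma. For these 4 of the 12, both Pax5(-/-) libraries lay below every wild-type library, beside 37.4% of all entries tested. For 3 of the 12 both lay above, beside 26.1% of all entries. The 95% interval lay within 1.5-fold for 11 of the 12.

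An overlap mark is carried by 10 member names in the mm9 tables, and the sources used here do not explain it. On the mm9 annotation 9 of the 10 share exon bases with another gene, as do 17 of the 66 members without the mark. Mrpl49, Mrpl53 and Mrps6 are described above. The other 7 were not called, with log2 fold changes of 0.26 for Mrps27, 0.21 for Mrpl19, 0.01 for Mrpl21, -0.01 for Mrpl24, -0.10 for Mrps25, -0.22 for Mrpl41 and -0.31 for Mrpl48. Reads were counted without regard to strand, so in the bases they share, genes on opposite strands are not told apart by strand.

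Many members start beside another gene. For 28 of the 76, a protein-coding gene on the other strand begins within 1000 bases of their own start on mm9, and 26 of these partners were tested. Of the 26, 6 were called, beside 37.1% of all entries tested. Mrpl46 and Mrps11, of different subunits, are each other's partner on chromosome 7, overlap by their first exons, and had log2 fold changes of -0.19 and -0.22. Of 6 called partners, Wdfy1 was higher (0.85) with its neighbour Mrpl44, and Eme2 was lower (-0.53) beside Mrps34, which was higher. Mrpl43 had a log2 fold change of -0.07 beside the higher Peo1 (0.53), which encodes the helicase of mitochondrial DNA. The others were Mtbp (-0.79) beside Mrpl13 (-0.16), Pnpla7 (0.77) beside Mrpl41 (-0.22) and Ncapd2 (-0.46) beside Mrpl51 (-0.33). Over the 26 pairs, Pearson's r was 0.253 and Spearman's rho 0.258, where partners share libraries and some share exon bases.

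Replicates of the wild-type group were close for most members. The highest over the lowest wild-type library was a median of 1.19-fold across members, and exceeded 1.5-fold for 5, namely Mrps33, Mrpl48, Mrpl47, Mrps18c and Mrpl32. Mrpl47 stood at 26.3, 21.6 and 37.2 TPM and Mrpl48 at 51.7, 43.0 and 73.7 TPM. In both, as in Mrps33, the third library was the highest. The first library was the highest of the 3 for 43 members and the second was the lowest for 47.

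The rest of the mitochondrial translation apparatus was read from lists of named genes. Of 7 ribosome subunits with other names, Ict1 was lower, at 199.6, 172 and 194 TPM against 142 and 144 TPM (-0.40 ± 0.10, adjusted p = 0.0204), and 6 were not called. None of 15 translation factors was called, with a median log2 fold change of -0.14, beside -0.12 over all entries tested. Among 17 aminoacyl-tRNA synthetases, which charge transfer RNA, Ears2 (0.77) and Vars2 (0.46) were higher and Mars2 and Tars2 (both -0.58) were lower. Of 20 assembly factors, Rbfa (0.51) and Mrm1 (0.59), which act on the ribosomal RNA, were higher. Of 9 genes of mitochondrial DNA transcription and replication, Peo1 was higher and Polg (-0.90), the DNA polymerase, was lower.

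Beside these, entries were grouped by name, after the members' values were seen, for the cytosolic ribosome and for the respiratory chain. Of 83 cytosolic ribosomal protein entries tested, 44 were higher and 1 was lower, with a median log2 fold change of 0.48, and their share of TPM was 12.4%, 10.8% and 10.8% in wild-type and 15.7% and 17.2% in Pax5(-/-) libraries. Of 79 nuclear-encoded respiratory chain and ATP synthase entries, 3 were higher and 15 lower (19.0%), beside 21.5% of all entries lower, with a median of -0.13. These became 2 and 3 with median ratios (median -0.0148), 8 and 9 with quantile normalization (-0.0839) and 1 and 7 without a trend in eBayes. The cytosolic entries that were higher were 53.0% beside 15.6% of all entries. They numbered 31 with median ratios (median 0.59), 34 with quantile normalization (0.41), 34 without a trend and 25 of 84 with no filter, with 1 lower in each. Myc, a regulator of ribosome production, was at 197, 214 and 212 TPM against 520.3 and 456 TPM (1.23 ± 0.10, adjusted p = 0.000133). The difference between cytosolic and mitochondrial ribosomal proteins was not tested.

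**Figure D3:**
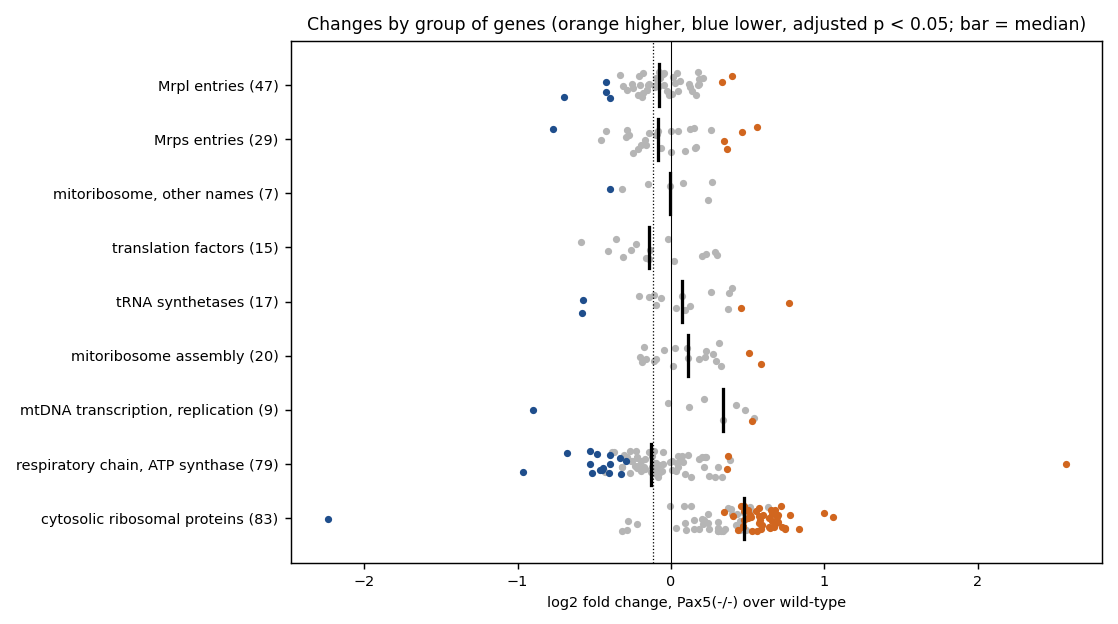
Log2 fold change in Pax5(-/-) over wild-type cells for each tested entry of 9 groups, with the number of entries in brackets, called entries in orange (higher) or blue (lower), a black bar for each group's median and a dotted line for the median of all entries. The medians of both subunits lie at -0.08, beside 0.48 for cytosolic ribosomal proteins and -0.13 for the respiratory chain, which was -0.0148 with median ratios.

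In the Meox2-cre pro-B cells, measured apart on mm10, Mrpl52 and Mrpl54 again led and Mrpl23 and Mrpl1 trailed. Mrpl52 was highest at 391, 476 and 441 TPM, followed by Mrpl54 at 397, 460.1 and 434 TPM, and their ranges overlapped. Mrpl23 was lowest at 5.70, 7.25 and 5.02 TPM, and Mrpl1 came next at 8.13, 7.86 and 7.55 TPM. The order of the 76 shared members was close to that in the mm9 wild-type tables, with Pearson's r = 0.937 on the log2 scale and Spearman's rho = 0.950, and for 66 of them the means of both sets of tables lay within 1.5-fold. Aligner, annotation, read counting, mice and genome build all differ between these tables, and the levels are set side by side without a test.

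The 10 members that differed by more than 1.5-fold between the sets of tables were led by Mrpl48, at 51.7, 43.0 and 73.7 TPM in the mm9 wild-type tables and 8.97, 9.86 and 8.70 TPM in the Meox2-cre tables. Mrps36 was at 21.9 to 31.3 TPM against 8.23 to 8.65 TPM. Mrpl48, Mrps36 and Mrpl23 are also the 3 members for which the mm9 annotation holds a pseudogene named after them, and all 3 are among these 10. Mrpl43, Mrps21, Mrpl22, Mrps10 and Mrps18b were likewise lower in the Meox2-cre tables, at 0.540, 0.602, 0.618, 0.624 and 0.645 of the wild-type mean. Mrps33, Mrpl23 and Mrpl13 were higher there, by 1.90, 1.65 and 1.62 times. Mrps21, the member with the largest change in the absence of Pax5, stood at 124, 138 and 147 TPM in Meox2-cre pro-B cells, which express Pax5 at 376 to 397 TPM, beside 128 and 137 TPM in the Pax5(-/-) tables of the other pipeline, a comparison across pipelines that was not tested.

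**Figure D4:**
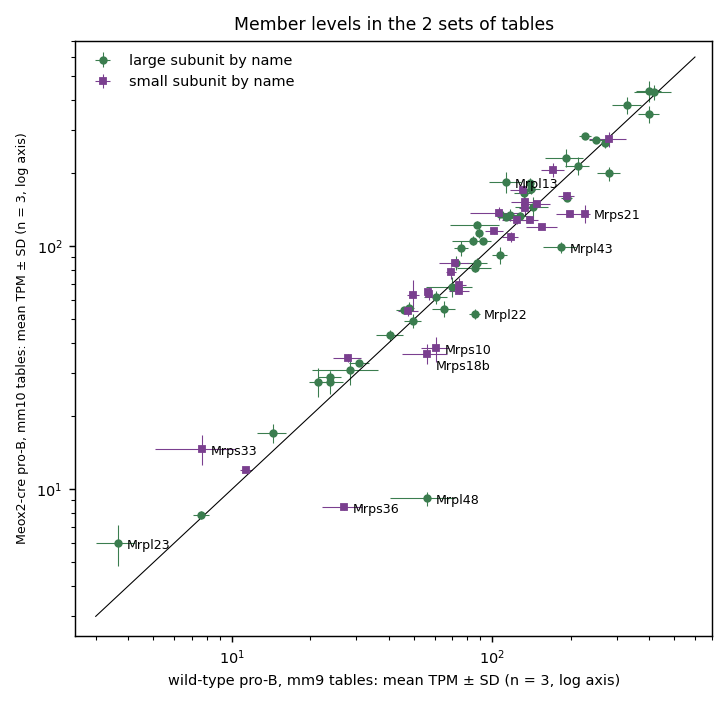
Mean TPM of the 76 shared members in wild-type pro-B cells of the mm9 tables against Meox2-cre pro-B cells of the mm10 tables, both on log axes with bars of 1 SD (n = 3), circles for large and squares for small subunit names, and the line of equal values. The members lie along the line except for 10 named ones, with Mrpl48 and Mrps36 farthest below it.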

How the data were processed

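The deposited files are tables of TPM made by the authors, 1 per library, in which counts per gene length are scaled to a fixed total. Per the study's methods, reads were cleared of ribosomal RNA reads and, for the wild-type and Pax5(-/-) libraries, aligned to mm9 with TopHat 1.4.1a and counted over a modified refGene annotation with featureCounts 1.5.0 at default settings, which ignore strand. Meox2-cre libraries were aligned to mm10 with STAR 2.4.2a and counted over mm10 refGene. TPM keeps no depth, so counting error is unknown and count tests were not used. Entries with a mean above 1 TPM in a genotype were tested with limma 3.58.1 in R 4.3.3. The fit used lmFit and eBayes with a trend on log2(TPM + 0.5), with Benjamini-Hochberg adjustment over all 12066 entries. On simulated data, this procedure called 31 of 100 entries changed 1.5-fold. It called 86.0% of those changed 2-fold and 96.0% of those changed 3-fold. Most changes of 1.5-fold were thus missed in the simulation. It changed far fewer entries than the 37.1% called in the real data, so its adjustment was stricter. Its shares therefore do not give how often such changes of members were missed here, which was not measured. The study's methods used a count model, which these files do not allow. Members and gene lists were chosen with earlier results of these data known. Genes named are the called members, the 3 highest and lowest of each subunit, members with a mark, the Mrps18 family, Mrps30, Mrps36, the lists by disease and place, called genes of the translation lists, Pax5 and Myc; members singled out by the mm10 tables, by spread between libraries or by a neighbouring gene were named after their values were seen. Gene positions are from the GENCODE annotation of mm9, and list names were matched through RefSeq synonyms. Promoters and their coordinates are from RefSeq on GRCm38.p6. Alternatives changed the pseudocount, filter, variance model, scaling and the libraries included. Other assays of the series were not analysed here.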

Additional observations from a re-analysis of the deposited data

How the results depend on the processing

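All 11 called members kept their direction under each of the 12 alternatives. Of these, 3 stayed called under every alternative that kept all 5 libraries, namely Mrps21, Mrpl49 and Mrps34, and Mrps21 alone also with each library left out in turn. Pseudocounts of 0.1 and 1 and a filter at 5 TPM left 6 higher and 5 lower members, and no filter 4 and 4. Without a trend in eBayes there were 1 higher and 3 lower. Rescaling by median ratios left 2 lower members and quantile normalization 3, and the medians of all, large and small subunit members became 0.0348, 0.0357 and 0.0339 with median ratios and 0.0080, 0.0021 and 0.0114 with quantile normalization. Leaving out a library gave 0 to 4 higher and 1 to 8 lower members. The counts were 0 higher and 1 lower without either Pax5(-/-) library, where the remaining library of that genotype is assumed to vary like the others. There were 4 and 4 without the first wild-type library, where Mrpl15, Mrpl42 and Mrps6 were no longer called. There were 2 and 7 without the second, where Mrpl44, Mrpl53, Mrps10, Mrps35 and Mrps6 were no longer called and Mrpl20, Mrpl27 and Mrps18c were newly lower. There were 4 and 8 without the third, where Mrpl15, Mrpl42 and Mrps10 were no longer called and Mrpl54, Mrps7, Mrps24 and Mrps36 were newly lower. No alternative gave a member past the 3-fold rule. The difference between subunit medians ran from -0.0344 to 0.0446 with a library left out. Counting subunits by structure gave ratios of mean levels of 1.25, 1.25 and 1.32 in wild-type, Pax5(-/-) and Meox2-cre libraries, and medians in place of means gave 0.966, 0.963 and 0.928. Taking receptor genes out of the Meox2-cre tables moved the summed member level by less than the spread between libraries. Except where fewer libraries enter, the cause was not tested. No paired analysis was possible because replicate numbers are absent from the labels, and those used here follow accession order and only name a library. Depth is unknown, so how far counting error limits the lowest members cannot be given.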
